A study of Mus musculus with 8 samples.

Results

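The miR-379 to miR-410 cluster is a run of microRNA (miRNA) genes on mouse chromosome 12, inside the imprinted Dlk1-Dio3 domain. Its members were taken as every mature form on the array (without suffix, starred, or from a named 3p or 5p arm) of 34 named miRNA stems, and all 34 stems were present. This gave 48 mature forms of the 650 miRNAs on the array, read by 133 probes with 20 spots per miRNA. Every culture was of microvascular smooth muscle cells (mVSM) from male C57BL6 mice with the Rap1a -/- genotype, so the controls lack Rap1a too. Cultures of both groups were grown in 10% serum. The Control group carried an empty Shuttle vector and the RapCA group a RapCA Shuttle vector. Both had viral transduction overnight in serum-free medium and 48 hours of recovery in 0.5% serum. Each group had 4 arrays from 4 cultures described as biological replicates, and the age of the animals and the make-up of the RapCA construct are not given in the sources used here. The series title names the comparison as knockout against rescue, and the question here was how the miRNAs of this cluster differ between these groups.

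Rap1a is a small GTPase of the Ras family that acts in cell adhesion and junctions and can be switched on by cAMP through the exchange factor Epac. The cluster is found in placental mammals, is expressed from the maternal chromosome, and is best known from embryo, placenta and brain. Its hairpins are cut from long transcripts of the domain, and each hairpin can give a mature miRNA from its 5p arm, its 3p arm or both. A mature miRNA lowers the output of mRNAs that pair with its seed, which is why members of 1 transcript can have separate targets.

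The hairpins of the tested members lie on the + strand of chromosome 12 between chr12:109709060-109743795 (GRCm38.p6, RefSeq), a span of 34.7 kb that opens with Mir379 and closes with Mir410. RefSeq held the mature sequence of 19 of the 21 tested members, 3 under the name on the array and 16 through the later 5p and 3p arm names. The first sequences shown are those on which the results turn: miR-494, which differs in direction from its neighbours, with the nearest tested members on either side of it (miR-329 and miR-495), and members from both ends of the cluster. Capitals mark the seed, bases 2 to 8.
miR-329: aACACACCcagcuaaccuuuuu
miR-494: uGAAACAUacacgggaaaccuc
miR-495: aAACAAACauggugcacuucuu
miR-379: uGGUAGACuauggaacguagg
miR-541: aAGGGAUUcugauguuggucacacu
miR-410: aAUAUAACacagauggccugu
Members close in sequence are shown next, because probes for such pairs can share signal.
miR-300: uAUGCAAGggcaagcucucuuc
miR-381: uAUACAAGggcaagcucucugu
miR-411: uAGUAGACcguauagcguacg
miR-376a: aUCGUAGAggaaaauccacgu
miR-300 and miR-381 differ at 3 of 22 bases. miR-376a differs from miR-376b, which was not tested, at 3 of 21. Among the pairs of equal length compared, the next closest were miR-154 with miR-382 and miR-329 with miR-377, each at 7 of 22. Then came miR-379 with miR-411, at 7 of 21. Sequences of unequal length were not compared. Nor were miR-376c and miR-487b, whose sequences were not held, so closer pairs can exist. Signal shared within such pairs cannot be told apart here. The 19 sequences held 19 distinct seeds, and 0 seeds were held by more than 1 member. Their GC content ran from 36.4% to 59.1% with a median of 45.5%, and miR-494 was at 45.5%.

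Brightness differed between the groups before any scaling. The summed gene signal was 69834 ± 9956 per Control array and 35150 ± 14362 per RapCA array (SD, n = 4 each), a ratio of 0.503 (two-sided exact permutation p = 0.0286, the smallest that 4 against 4 allows). RapCA replicate 1, at 56618, lay apart from the other RapCA arrays at 26374 to 29218. All 8 arrays lay on 1 slide, with the Control arrays in one row and the RapCA arrays in the other, so slide row and group cannot be told apart. Of the smooth muscle markers, 3 in number on the array, miR-143 was detected on all 8 arrays and miR-145 on 4 Control and 0 RapCA arrays, and their summed total gene signal, before scaling, ran from 187 to 326 in Control and from 27.1 to 98.6 in RapCA. The part of this in the results on the cluster was not tested. The other lists had 0 of 2 endothelial, 0 of 5 blood, 0 of 6 epithelial, 0 of 3 neuronal and 1 of 7 striated muscle miRNAs detected on any array. In bulk samples such as these, fewer cells with a miRNA and less of it per cell cannot be told apart.

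Most of the tested members, many of which entered the test through Control alone, read lower in RapCA cells. Values below are log2 of the scaled signal, where each array was set to a common 75th percentile and floored at 9.61 (log2 3.26), and differences are RapCA minus Control ± SE from limma. Of the 21 tested members, 19 were lowered, 1 was raised and 1 did not pass the threshold of 0.05 on the adjusted p. Over all 168 tested miRNAs, 50.0% were lowered and 26.2% were raised. The median difference was -0.87 over the tested members and -0.30 over all tested miRNAs. On 17 members every RapCA array lay below every Control array, which held for 46.4% of all tested miRNAs, and on 1 member every RapCA array lay above, which held for 21.4%. The groups overlapped on miR-376a, miR-376c and miR-377.

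The tested members are not all of the cluster, and most of them were tested because Control arrays detected them. All 21 were detected on all 4 Control arrays, but 8 were detected on all 4 RapCA arrays. Another 2 (miR-410 and miR-376c) were detected on 3 RapCA arrays, 6 on RapCA replicate 1 only, and 5 on none. The last 13 entered the test through Control, so the 19 of 21 is no support for a fall of the cluster. Of the 8 members on all 8 arrays, 3 had every used probe detected on each array. The rest of the 8 also carry a probe that entered through Control. The probes detected on all 8 arrays do not depend on that choice. They gave 115 miRNAs, of which 49.6% were lowered and 30.4% raised, and 8 members, of which 6 were lowered, 1 was raised and 1 was not called. All RapCA arrays lay below all Control arrays for 46.1% of the 115 and for 6 of the 8 members, and above for 26.1% and for 1 member. The median there was -0.80 for the 8 members and -0.24 for all 115. From these probes alone the difference was -1.40 for miR-379, -1.01 for miR-382 and -0.94 for miR-300. It was -0.91 for miR-329 and -0.69 for miR-154, and each of these is smaller than with all used probes.

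**Figure D1:**
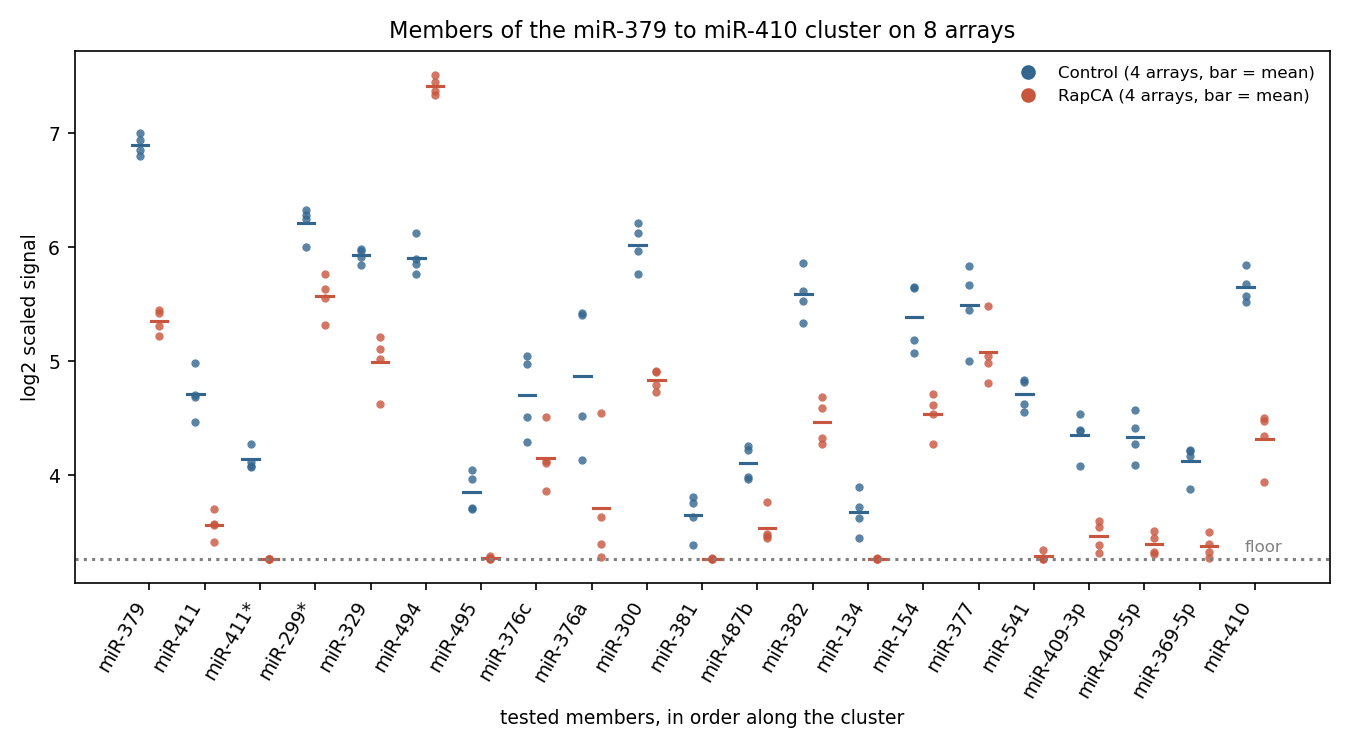
Scaled log2 signal of the tested members on each of the 4 Control and 4 RapCA arrays, with 1 point per array. miR-494 sits higher on all RapCA arrays (7.33 to 7.51) than on Control arrays (5.76 to 6.12), while miR-379 sits lower (5.22 to 5.45 against 6.80 to 7.01).

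miR-379 opens the cluster and, at the scaling used here, had the largest fall of the 8 members detected on all 8 arrays. Its values were 6.85, 6.80, 6.94 and 7.01 on the Control arrays and 5.45, 5.22, 5.43 and 5.31 on the RapCA arrays. The groups lay far apart next to the spread within each, which was 0.09 in Control and 0.11 in RapCA (SD, n = 4). The difference was -1.55 ± 0.09, or 2.93-fold lower (limma adjusted p = 9.96e-07). These values average a probe detected on 6 arrays, which entered through Control, with a probe detected on all 8, which alone gave -1.40. Before scaling, its signal was 205, 213, 281 and 194 in Control and 78.6, 27.8, 32.3 and 31.3 in RapCA, so RapCA replicate 1 was below every Control array without any scaling.

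miR-494 was the member that rose. In mice its inhibition improved the growth of blood vessels after hindlimb ischaemia. Its values were 5.90, 5.85, 5.76 and 6.12 in Control and 7.33, 7.37, 7.51 and 7.45 in RapCA. All RapCA arrays lay above all Control arrays, and the difference was 1.51 ± 0.10, or 2.85-fold (limma adjusted p = 1.08e-06). Both of its probes rose, by 1.59 and 1.43.

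The size of that rise rests on the scaling between arrays. Unscaled, miR-494 read 92.5, 99.97, 105 and 88.9 in Control and 240, 96.8, 115 and 108 in RapCA. RapCA replicate 1, whose scaling factor of 1.38 lay within the Control range of 1.15 to 1.72, was above every Control array, and RapCA replicate 2 lay within them. With no scaling the difference was 0.44 (limma adjusted p = 0.189), and with spike-in scaling it was 0.44 (adjusted p = 0.25), so the call was lost under both. With cyclic loess over all probes it was 1.14 (adjusted p = 0.445), and the call was lost there too. Over all alternatives tried, its difference ran from 0.44 to 1.79, and it was below 0 in none.

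A comparison within an array needs no scaling between arrays. The difference between miR-494 and the median of the 7 other members with probes on all 8 arrays was -0.35, -0.15, -0.52 and -0.20 in Control. It was 1.85, 1.61, 1.95 and 1.82 in RapCA. The means were -0.31 ± 0.17 and 1.81 ± 0.14 (SD, n = 4) and the groups did not overlap. miR-494 was taken as the raised member, and 6 of the 7 others were called lowered in these same data. The gap thus restates those calls and is no separate support for them. By brightness, miR-494 made up 7.95% ± 0.96 of the cluster's signal in Control and 38.3% ± 4.6 in RapCA (SD, n = 4). These shares are of array brightness, which differs between probes, and not of molecules. Undetected members add almost nothing to that signal, and fewer members were detected on RapCA arrays, which bears on the share of miR-494.

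**Figure D2:**
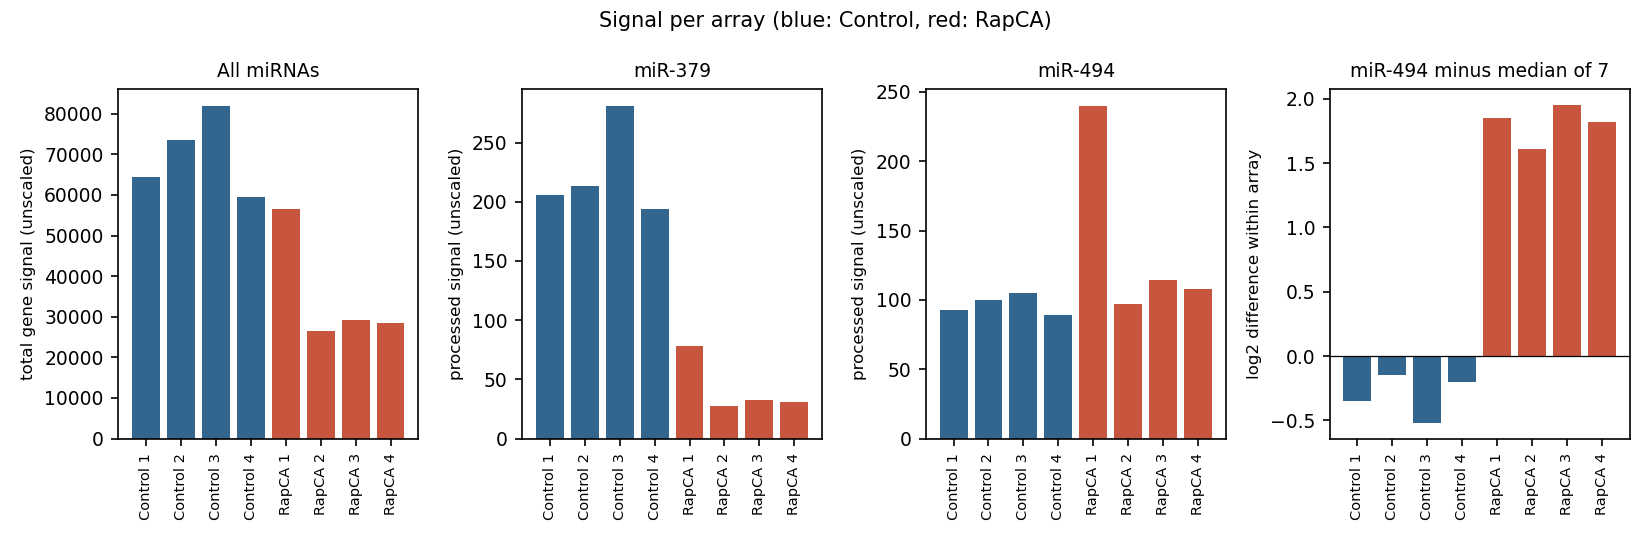
Signal per array before scaling between arrays, for the Control and RapCA groups, and the within-array difference of miR-494 from the median of 7 other members on a log2 axis. RapCA replicate 1 is the brightest RapCA array at 56618 in total, and the within-array difference separates the groups, from -0.52 to -0.15 in Control and from 1.61 to 1.95 in RapCA.

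The neighbours of miR-494 on the chromosome went the other way. Its hairpin starts 1.84 kb after that of miR-329 and 3.44 kb before that of miR-495. miR-329 read 5.98, 5.85, 5.96 and 5.92 in Control and 4.63, 5.21, 5.02 and 5.10 in RapCA, a difference of -0.94 ± 0.13 (limma adjusted p = 8.73e-05). No RapCA array reached the Control range, although RapCA replicate 1 lay well under the other RapCA arrays. miR-495 read 3.71, 3.96, 4.04 and 3.70 in Control and 3.29, 3.26, 3.27 and 3.26 in RapCA, a difference of -0.58 ± 0.10 (adjusted p = 0.000503). Its RapCA values were at or near the floor, none of the RapCA arrays detected it, and a fold cannot be bounded above 1.

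miR-329, miR-487b, miR-494 and miR-495 are known together from mouse hindlimb ischaemia, where inhibiting each improved blood flow recovery. In these cells they did not move together. miR-487b averaged 4.11 ± 0.15 in Control and 3.54 ± 0.15 in RapCA (SD, n = 4), with ranges of 3.96 to 4.26 and 3.45 to 3.76. Its difference was -0.57 ± 0.11 (limma adjusted p = 0.00113), so 3 of the 4 were lowered and miR-494 was raised, beside 50.0% and 26.2% of all tested miRNAs. Of the lowered members, miR-495 was detected on 0 RapCA arrays and miR-487b on 1, so both entered the test through Control. Without RapCA replicate 2 the difference of miR-487b was -0.35 (adjusted p = 0.0345), where the median of all tested miRNAs was -0.10.

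At the other end of the cluster, miR-541 and miR-410 were lowered. miR-541 read 4.83, 4.56, 4.63 and 4.82 in Control and 3.26, 3.34, 3.26 and 3.27 in RapCA, with a difference of -1.42 ± 0.09 (limma adjusted p = 1.08e-06). No RapCA array detected it above background, and it was at least 1.56-fold lower there. For that bound each RapCA array counts at the higher of the miRNA's measured value and the dimmest detected probe of the array, and the arrays are averaged. On RapCA replicate 2 that probe was at 4.70, about the Control mean of 4.71, so that array alone bounds no fall. The floor sets the size of its difference, which was -2.69 with the floor at 1. Without Control replicate 2, its lowest Control value, the difference was -0.71 (adjusted p = 6.88e-05). Scaling, floor and probe filter were redone for that fit, so the probes averaged can differ. With no filter on dim probes, the difference over all arrays was -0.76. How far the probes averaged account for the smaller difference was not tested. miR-410 averaged 5.65 ± 0.14 in Control and 4.31 ± 0.26 in RapCA (SD, n = 4), ranging from 5.52 to 5.84 and from 3.94 to 4.50. The difference was -1.34 ± 0.14 (adjusted p = 1.51e-05).

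The 3 other tested miRNAs of that end were detected on RapCA replicate 1 only, so the floor bears on the size of their differences. With the floor at 1 these were -1.60 for miR-369-5p, -1.26 for miR-409-5p and -1.25 for miR-409-3p, and the values that follow are at the floor of 9.61. miR-409-5p differed by -0.94 ± 0.12 (limma adjusted p = 4.96e-05) and miR-409-3p, from the opposite arm of the same hairpin, by -0.89 ± 0.12 (adjusted p = 7.45e-05). The arms were also alike in level within each group, at 4.34 ± 0.21 and 4.35 ± 0.19 in Control and at 3.40 ± 0.10 and 3.46 ± 0.13 in RapCA (SD, n = 4), although levels of different probes are not comparable as amounts. miR-369-5p differed by -0.75 ± 0.10 (adjusted p = 0.000106), with -0.29 for one probe and -1.21 for the other, the widest gap between probes of 1 member. Its probes still pointed the same way, as they did for 13 of the 13 members with more than 1 probe used.

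Near miR-379, both arms of the miR-411 hairpin were called lowered, and both entered the test through Control. miR-411 averaged 4.71 ± 0.21 in Control (4.46 to 4.99) and 3.56 ± 0.12 in RapCA (3.41 to 3.71). The difference was -1.15 ± 0.12 (limma adjusted p = 1.78e-05). miR-411* read 4.27, 4.08, 4.08 and 4.12 in Control and 3.26 on each RapCA array, which is the floor. Its difference was -0.87 ± 0.08 (adjusted p = 7.59e-06), and the bound, averaged over the RapCA arrays, was at least 1.05-fold lower. On RapCA replicates 2 and 4 the dimmest detected probe (4.70 and 4.24) lay above its Control mean of 4.14, so those arrays alone bound no fall. With the floor at 1 its difference was -2.60. miR-299* read 6.25, 6.0, 6.28 and 6.32 in Control and 5.32, 5.76, 5.56 and 5.64 in RapCA, all below the Control range. Its difference was -0.65 ± 0.12 (adjusted p = 0.000732).

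The miR-376 family lies in the middle of the cluster, and its transcripts are known to be edited from adenosine to inosine in mouse and human brain. Its tested members had wide spread within the groups. miR-376a averaged 4.87 ± 0.65 in Control (4.14 to 5.42) and 3.71 ± 0.57 in RapCA (3.28 to 4.54), a difference of -1.16 ± 0.35 (limma adjusted p = 0.0125). miR-376c averaged 4.70 ± 0.36 in Control (4.29 to 5.04) and 4.15 ± 0.27 in RapCA (3.86 to 4.51), a difference of -0.55 ± 0.19 (adjusted p = 0.0247). Each passed the test, but their groups overlapped. miR-376a was detected on 1 RapCA array and miR-376c on 3, so both entered through Control. With the floor at 1 the difference of miR-376a was -1.60. Without RapCA replicate 2 both calls were lost, at -0.81 (adjusted p = 0.0647) for miR-376a and -0.25 (adjusted p = 0.289) for miR-376c. Scaling was redone for that fit, where the median of all tested miRNAs was -0.10, against -0.30 on all arrays. The loss is thus not due to that array's own values alone. The call of miR-376c was also lost without Control replicate 2 or 3 (-0.45 and -0.42) and without RapCA replicate 3 or 4 (-0.56 and -0.55).

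miR-300 and miR-381 are near-identical but were measured at different levels. miR-300 read 5.76, 5.97, 6.21 and 6.12 in Control and 4.91, 4.73, 4.91 and 4.79 in RapCA, a difference of -1.18 ± 0.11 (limma adjusted p = 8.22e-06). Every RapCA array lay below every Control array. miR-381 read 3.38, 3.63, 3.81 and 3.76 in Control and 3.27, 3.26, 3.26 and 3.26 in RapCA, and differed by -0.38 ± 0.10 (adjusted p = 0.00804). None of the RapCA arrays detected it, and a fold cannot be bounded above 1. Its call was lost without RapCA replicate 2, at -0.26 (adjusted p = 0.0737), where the median of all tested miRNAs was -0.10. It was also lost without Control replicate 3, at -0.23 (adjusted p = 0.0672).

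miR-382, miR-134 and miR-154 follow downstream. miR-382 read 5.53, 5.34, 5.62 and 5.86 in Control and 4.27, 4.33, 4.59 and 4.68 in RapCA, a difference of -1.12 ± 0.14 (limma adjusted p = 4.59e-05). miR-154 read 5.07, 5.18, 5.65 and 5.64 in Control and 4.28, 4.54, 4.71 and 4.61 in RapCA, a difference of -0.85 ± 0.16 (adjusted p = 0.000762). The groups did not overlap on either miRNA. miR-134, which restrains the kinase Limk1 in the dendritic spines of rodent neurons, read 3.90, 3.45, 3.62 and 3.72 in Control and 3.26, 3.26, 3.26 and 3.27 in RapCA. Its difference was -0.41 ± 0.10 (adjusted p = 0.00513), from values close to the floor on all arrays. No RapCA array detected it, a fold cannot be bounded above 1, and the difference was -1.60 with the floor at 1. The call was lost without RapCA replicate 2 (-0.31, adjusted p = 0.0846), where the median of all tested miRNAs was -0.10. Without Control replicate 1 it was -0.22 (adjusted p = 0.0393).

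miR-377 was the tested member that was not called. It read 5.0, 5.67, 5.83 and 5.45 in Control and 5.48, 4.81, 5.05 and 4.98 in RapCA. RapCA replicate 1 lay inside the Control range and Control replicate 1 inside the RapCA range. The difference was -0.41 ± 0.20, with a 95% interval from -0.85 to 0.03 (limma adjusted p = 0.0812). Without Control replicate 1 it was -0.55 (adjusted p = 0.0240) and without RapCA replicate 1 it was -0.54 (adjusted p = 0.0195), and it then passed the test. Without RapCA replicate 2 it was -0.11 (adjusted p = 0.649), where the median of all tested miRNAs was -0.10.

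**Figure D3:**
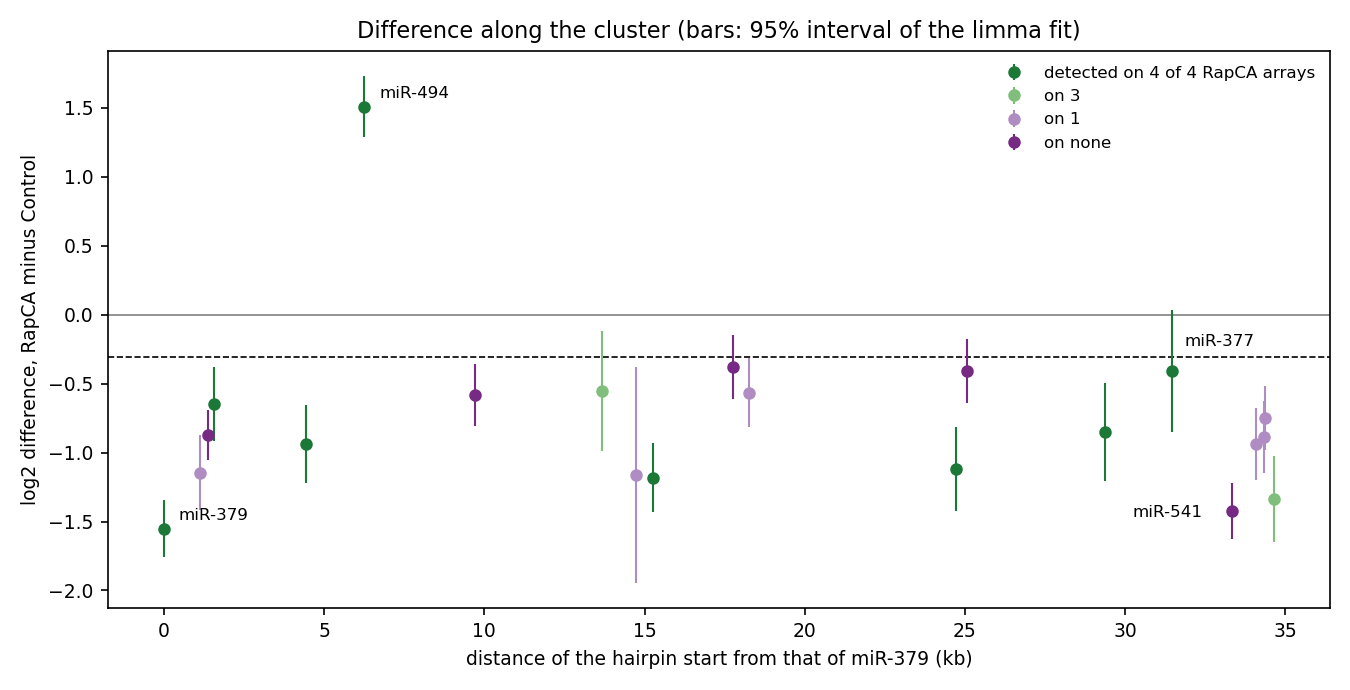
Log2 difference, RapCA minus Control, against the distance of each hairpin start from that of miR-379 in kb, for the 21 tested members. The points of miR-411* and miR-409-3p are moved slightly to the right of their hairpins so that both arms show. Bars are 95% intervals of the limma fit, colour gives the number of RapCA arrays on which the member was detected, and the dashed line is the median of all 168 tested miRNAs (-0.30). miR-494, 6.26 kb along, stands above 0 between lowered members on both sides.

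At the floor of 9.61, the median difference was -0.94 over the 9 members from 5p arms and -0.73 over the 12 from 3p arms, given as a description.

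The remaining 27 members were not tested, because no probe of theirs was detected on all arrays of a group. Among them 20 were detected on no array. These were miR-300*, miR-323-3p, miR-323-5p, miR-369-3p, miR-376c*, miR-380-3p, miR-380-5p, miR-412, miR-453, miR-485, miR-485*, miR-496, miR-539, miR-544, miR-666-3p, miR-666-5p, miR-667, miR-668, miR-679 and miR-758. The other 7 were seen on a few arrays, more often Control. miR-299 and miR-376b were each detected on 2 Control arrays and 1 RapCA array, miR-154* and miR-382* on 2 Control arrays, and miR-376a*, miR-376b* and miR-543 on 1 Control array. Counted over all 48, 28 members were detected on at least 1 Control array and 18 on at least 1 RapCA array. Per array, between 21 and 28 were detected in Control, and 18, 8, 10 and 10 in RapCA for replicates 1 to 4. Over all miRNAs on the array, 169 to 200 were detected per Control array, and 183, 123, 140 and 129 on RapCA replicates 1 to 4. RapCA replicate 1, the brightest RapCA array, thus detected the most members of its group.

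RapCA replicate 1 allows the cluster to be read at a brightness near that of the Control arrays. Unscaled, it lay below every Control array for 17 of the 21 tested members, above for miR-494 and within the Control range for miR-376a, miR-376c and miR-377. The same held, below and above, for 54.2% and 24.4% of all 168 tested miRNAs. Of the 21 members, 5 were detected on no RapCA array, 6 on RapCA replicate 1 only and 2 on 3 RapCA arrays. These entered the test through Control, where they are high, so the 17 of 21 is no support for a fall of the cluster. As the only RapCA array in the fit, it gave a median difference of -0.88 over 23 tested members, to which the same limit applies. Over all 196 miRNAs tested in that fit, the median was -0.04.

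The cluster as a whole took a smaller part of the array's brightness in RapCA cells. Its summed signal was 2.31% ± 0.16 of the gene signal in Control (2.16% to 2.54%) and 1.38% ± 0.25 in RapCA (1.11% to 1.72%, SD, n = 4 each). Without miR-494 the shares were 2.12% ± 0.17 and 0.864% ± 0.22. The groups did not overlap in the share of the whole cluster, and no test was made of this sum over members. Undetected miRNAs add almost nothing to this signal, and fewer members were detected on RapCA arrays. Summed over all probes, detected or not, the share ran from 2.26% to 2.61% in Control and from 1.43% to 1.83% in RapCA, a smaller gap. The shares without miR-494 were not taken this way.

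How many members were called depended on the scaling. With no scaling, 20 members were lowered and 0 raised, beside 113 and 10 of all tested miRNAs. With cyclic loess, 16 were lowered and 1 raised, beside 62 and 62 of all, where the median was -0.67 over the members and -0.05 over all. With normexp background correction and an offset of 50, the member median turned to 0.31, beside a median of 0.37 over all tested miRNAs. There 1 member was lowered and 7 were raised, beside 20 and 81 of all. The side of 0 on which the member median lies thus turned under that correction, while it remained under the median of all tested miRNAs.

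**Figure D4:**
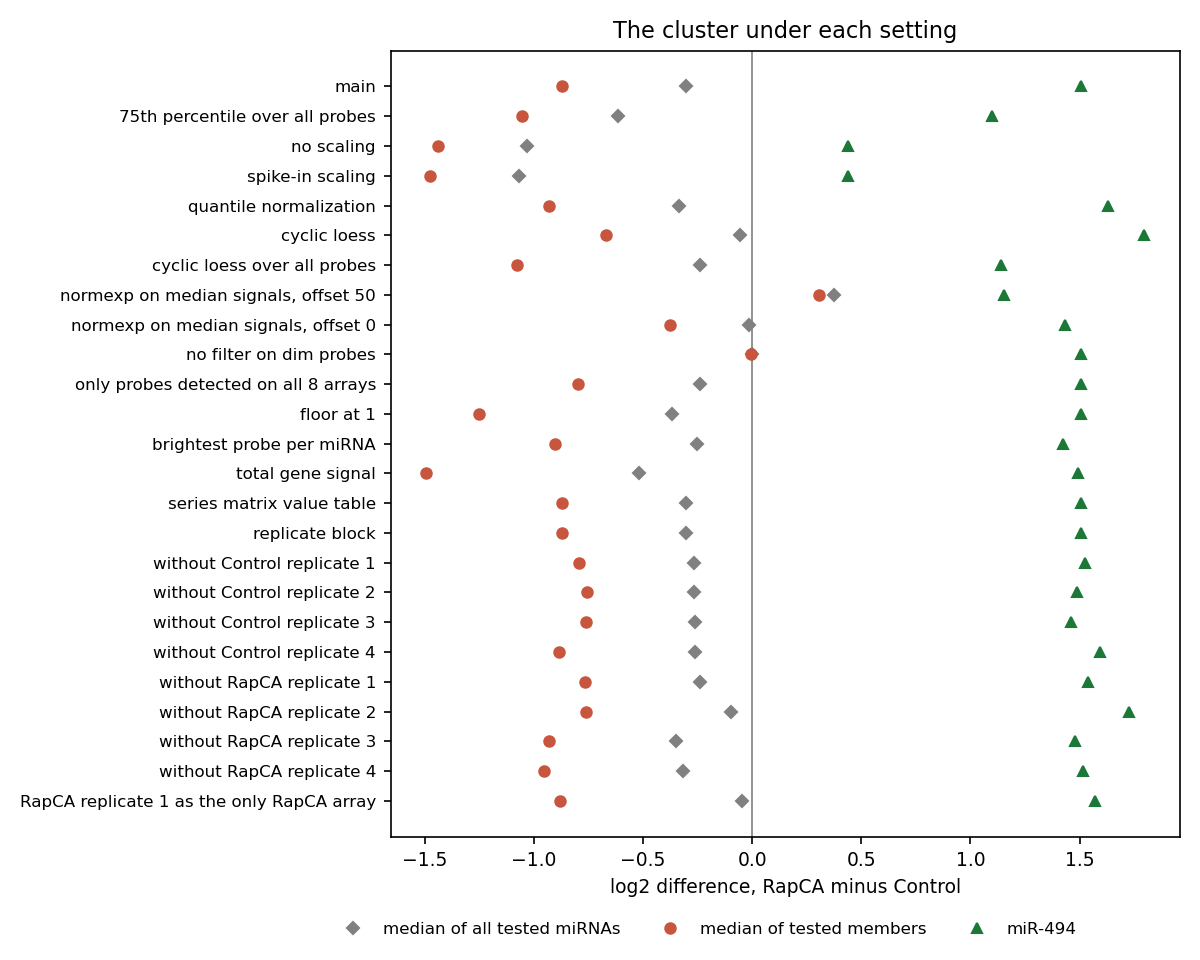
Log2 difference, RapCA minus Control, under each processing setting, as the median of all tested miRNAs, the median of the tested members and the value of miR-494. The member median lies below 0 except under normexp with an offset of 50 (0.31), where all miRNAs shift up too (0.37), and is -0.00537 with no filter on dim probes.

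The same imprinted domain holds further miRNAs outside this run. Of 25 such miRNAs on the array, 9 were tested, 8 were lowered, 0 were raised and 1 was not called, with a median of -0.76, beside 50.0% lowered and a median of -0.30 over all tested miRNAs. All 9 were detected on all 4 Control arrays, but 3 on all 4 RapCA arrays, 4 on some and 2 on none, so 6 entered through Control and the count is no support for a fall of the domain. The brightest of them were miR-127, at 7.26 in Control and 5.46 in RapCA (-1.80 ± 0.14, limma adjusted p = 3.19e-06), and miR-434-3p, at 6.13 and 4.96 (-1.17 ± 0.13, adjusted p = 2.30e-05). miR-127 is made opposite the retrotransposon-derived gene Rtl1, which it targets.

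The authors' deposited table of 54 miRNAs held 10 members of the cluster. In the authors' deposited table all RapCA values lay below all Control values for 8 of them and overlapped for miR-376a. The same count over all 54 miRNAs was not made, so the 8 of 10 cannot be read as a trait of the cluster. miR-541 and miR-411* both read 8, 8, 7 and 7 in RapCA there, near the lowest value held (6), so their separation rests on values at the low end. For miR-494 the authors' deposited table gave 93, 80, 78 and 96 in Control and 257, 241, 241 and 235 in RapCA. For miR-379 the authors' deposited table gave 206, 173, 219 and 219 in Control and 99, 74, 84 and 80 in RapCA. The normalization of these values is not stated, and the miRNAs in the table were selected by the authors.

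The long transcripts of the domain start near Meg3, upstream of the cluster on the same strand, and its promoter is shown because 6 of the 8 members detected on all 8 arrays were lower, beside 49.6% of all 115 such miRNAs. RefSeq gives 2 such windows for Meg3, and the first is shown. This window, chr12:109540746-109541045 (GRCm38.p6, + strand), runs from 250 bases before to 50 bases after its start site. A search for the cAMP response element TGACGTCA, which reads the same on both strands, found 1 match, in capitals, whose first base is at -57 from the start site.
Meg3: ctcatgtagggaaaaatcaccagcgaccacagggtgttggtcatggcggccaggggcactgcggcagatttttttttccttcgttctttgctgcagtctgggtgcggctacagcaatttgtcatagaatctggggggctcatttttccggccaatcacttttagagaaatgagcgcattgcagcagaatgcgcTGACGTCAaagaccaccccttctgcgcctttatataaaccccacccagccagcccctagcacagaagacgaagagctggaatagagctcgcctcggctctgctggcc
The motif stood in 588 of 32851 such windows (1.79%) over all genes, and in 1 of the 6 windows of the domain that were searched. That is the window shown, so the other Meg3 window held no match. The match is a description of the sequence, and no binding was measured here.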

How the data were processed

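RNA from 8 cultures was labelled with Cy3 and read on 8 mouse miRNA arrays, 1 colour each. Spots were quantified by the authors with Agilent Feature Extraction, version 10.7.3.1 per the file headers and 10.7 per the submitters' processing notes. The deposited processed intensity is background-subtracted and spatially detrended, per the file headers, and not scaled between arrays. The deposited series value table equals it (largest difference 0). The authors' deposited table holds whole-number intensity values from 6 to 2316.

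Control and outlier-flagged spots were left out (2.98% to 4.66% of 13000 spots per array, 0 saturated). A probe was detected where over 0.5 of its spots were well above background. Signals were scaled so that arrays share the 75th percentile of the 189 probes that every array detected, floored at 9.61 (percentile 1 of detected spots) and put on a log2 scale. A probe is the mean of its spots, and a miRNA the mean of its probes that every array of at least 1 group detected. limma 3.58.1 (R 4.3.3) compared the groups in 168 miRNAs, two-sided, with Benjamini-Hochberg adjustment, and the method was tested on simulated data. Fold changes of dim miRNAs are understated by the floor, and their spread too. The number of arrays limits the precision, and since the origin of the cultures is not given, p-values cover only how these 8 samples vary, which may be technical.

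The members and lists were chosen with earlier results of these data known. All tested members are named, with values on each array for those on all 8 arrays and for those on no RapCA array, and the 2 brightest miRNAs of the rest of the domain. No sample was left out. Alternatives covered scaling, background correction, filter, floor, probe choice, the replicate block and each array left out. With an array left out, scaling, floor and probe filter were redone, so every value could shift and the probes averaged could differ.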

Additional observations from a re-analysis of the deposited data

Results flagged for a closer look

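Of 41 groups of 4 arrays examined, 4 held an array far from the others, and chance gives about 1 in 20. The array was RapCA replicate 1 in 3 of the 4. Its total gene signal was 56618, against 26374 to 29218 on the other RapCA arrays. Its summed signal over the cluster was 976, against 293 to 405. Its summed miR-494 signal was 318, against 128 to 153. The fourth was miR-369-5p on Control replicate 2, at 3.88 on the log2 scale against 4.17 to 4.22 on the other Control arrays.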

How the results depend on the processing

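Over 24 alternatives of the fit, 491 values of single members were computed, of which 414 kept direction and side of the threshold, 47 lost the call, 23 called values reversed and 5 were newly called (all 5 for miR-377). The other 2 were miR-377, not called, at 0.31 (normexp, offset 50) and 0.14 (RapCA replicate 1 alone). The normexp corrections, on median signals because no mean signal column was used here, the all-probe cyclic loess and the fit with RapCA replicate 1 alone were chosen after seeing the data. The median difference of the members was -1.44 with no scaling and -1.47 with spike-in scaling (0 raised under both), -1.49 with total gene signal per miRNA, -1.25 with the floor at 1 and -0.00537 with no filter, where undetected members at the floor enter. With only probes on all 8 arrays, fewer members are tested and 6 were lowered, beside 57 of 115 miRNAs. Cyclic loess over all probes called 1 member lowered and 0 raised, beside 2 and 3 of all 168 tested miRNAs. It turned miR-134 to 0.60, miR-381 to 0.30 and miR-495 to 0.63. Normexp with offset 0 gave 9 members lowered and a median of -0.38, beside 54 and -0.01 over all tested miRNAs. It put miR-134 at 0.0492, miR-381 at 0.0407 and miR-487b at 0.0520. Normexp with offset 50 gave 1 lowered, 7 raised and a median of 0.31, beside 20, 81 and 0.37 over all tested miRNAs. It turned miR-134 to 0.53, miR-154 to 0.21, miR-299* to 0.0332, miR-329 to 0.00408, miR-369-5p to 0.45, miR-376a to 0.31, miR-376c to 0.45, miR-381 to 0.53, miR-382 to 0.0863, miR-409-3p to 0.45, miR-409-5p to 0.45, miR-410 to 0.0282, miR-411 to 0.28, miR-411* to 0.44, miR-487b to 0.55, miR-495 to 0.55 and miR-541 to 0.30. The cause was not tested. Leaving out 1 array at a time gave 15 to 20 lowered, 1 to 1 raised, a median from -0.96 to -0.76, a share difference from -1.03 to -0.83 percentage points and a total signal ratio from 0.401 to 0.545 (exact permutation p from 0.0286 to 0.0571). Over all tested miRNAs, leaving out 1 array at a time gave 61 to 85 lowered and 39 to 49 raised. Placing the 2 members with a fold bound at it moved the member median to -0.75. Replicate numbers did not pair the arrays (correlations -0.65, -0.60, -0.55 and 0.63). With the replicate block 18 members were lowered and 1 raised, beside 77 and 41 of all tested miRNAs. There miR-376c (-0.55, limma adjusted p = 0.0587) lost its call. A block for slide or scan was not run, since there was 1 of each. Signal over background limits the 13 members not detected on all RapCA arrays.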
